A study of Mus musculus with 12 samples.

Results

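Genes for nuclear receptors and for the proteins that handle fatty acids and foreign chemicals were examined for differential DNA methylation after maternal phthalate exposure. The genes were chosen by symbol from the protein-coding genes of the RefSeq annotation of GRCm38, and 226 of 21900 protein-coding genes matched. They comprised 46 genes classed as nuclear receptors, 9 coregulators (Ncoa and Ncor), 9 fatty acid binding proteins and 162 enzymes. The enzymes were 99 cytochromes P450 (Cyp), 22 UDP-glucuronosyltransferases (Ugt), 21 sulfotransferases (Sult) and 20 glutathione S-transferases (Gst). The symbol pattern also took Nr2c2ap, a partner of a receptor that is not itself a receptor, into the receptor class.

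The libraries came from splenic CD11c dendritic cells, the antigen-presenting cells of the spleen, of female C57BL/6 F1 offspring. The F0 mothers were dosed over 10 days, either with corn oil as vehicle or with DEHP, a phthalate used to soften plastics, at a daily 37 µg per kg, and were then mated with naive males. The parental animals were 6 to 8 weeks of age, and each maternal group was represented by 6 libraries. The offspring of both groups carry the label of ovalbumin (OVA) immunisation. Reduced representation bisulfite sequencing reads methylation at CpG-rich restriction fragments. The labels do not say how many mothers, litters or animals stand behind the 12 libraries, and without expression values the CD11c label could not be checked against markers.

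Nuclear receptors are transcription factors that bind DNA as monomers or pairs and are switched by lipids, hormones or foreign chemicals, with corepressors and coactivators acting on them. PPARs, LXRs, RARs and the vitamin D receptor share RXR as a partner. Phthalate monoesters are known activators of PPARs, which in dendritic cells and macrophages act on lipid handling and inflammatory genes. Phase I enzymes, mainly cytochromes P450, oxidise their substrates, while glucuronosyl-, sulfo- and glutathione transferases attach polar groups for excretion. Many of these enzymes are best known from the liver.

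The values are those of the authors' deposited table of called CpG sites, which gives a difference between the groups as wholes, a p-value and a q-value. It holds 2798 sites, of which 1354 have a positive and 1444 a negative difference, all of at least 25 percentage points. No level per library, spread or read depth was available for analysis, so none stands beside the values. A gene is counted as carrying a called site if at least 1 such site lies in its span or within 5 kb of it. A positive difference is taken to mean more methylation in offspring of DEHP-treated mothers, although the table does not state the direction of subtraction. A gene without a called site may have been uncovered, or may have differed by less than the minimum.

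Called sites lay at 13 of the 226 genes (5.75%), against 6.51% of all protein-coding genes, so the set as a whole was near the background. The classes within it were unequal. Of the 46 receptor genes 7 carried a site (15.2%), namely Ppara, Ppard, Rxrb, Esrrb, Nr2c1, Nr2f2 and Nr4a2. Of the 162 enzyme genes 4 did (2.47%), and each of these was a sulfotransferase, Sult1a1, Sult2a4, Sult4a1 or Sult5a1. Among the cytochromes P450, glucuronosyltransferases and glutathione transferases, 0 of 141 genes carried a called site. Of the 9 coregulator genes 1 carried sites, and of the 9 fatty acid binding protein genes Fabp4 did. The difference in share between receptors and enzymes was 12.7 percentage points. No test was made over genes, which differ in length and in coverage.

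The number of genes followed the window and the minimum size. Within spans alone 10 of the 226 genes carried a site (4.95% of all protein-coding genes), and with 20 kb on either side 19 did (10.7% of all). Restricted to sites with a deposited q-value of 0, 11 genes remained (5.0% of all). At a difference of at least 30 percentage points 6 genes carried a site (3.02% of all), and at 40 points 0 did (0.425% of all).

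**Figure D1:**
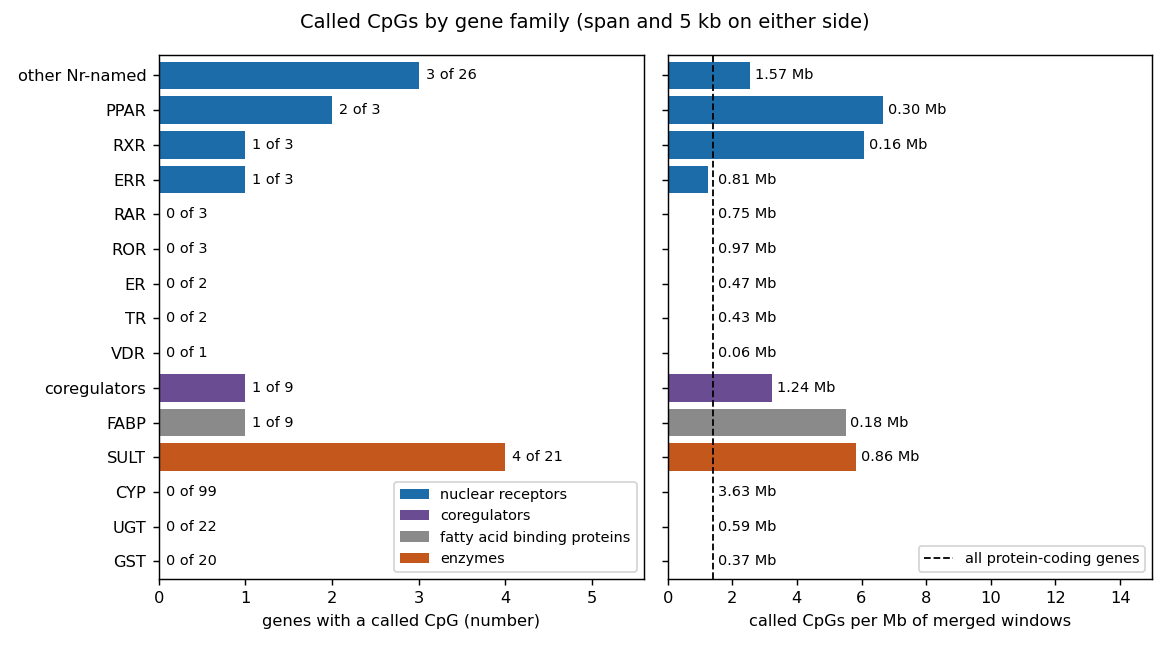
Number of genes with a called CpG (left) and called CpGs per Mb of merged gene windows (right) for each family, coloured by class; labels give the genes in the family and the merged window length, and the dashed line marks all protein-coding genes (1.39 per Mb). Sulfotransferases stand at 5.84 per Mb on 5 sites. PPAR, RXR and FABP are similar, at 6.66, 6.07 and 5.50 per Mb on 2, 1 and 1 sites. The cytochromes P450, with the longest windows (3.63 Mb), hold none.

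The contrast between the classes was smaller per unit of genome. Receptor genes had a median span of 41.3 kb, enzyme genes 21.0 kb and all protein-coding genes 17.1 kb. With overlapping windows merged, the receptor genes held 8 called sites in 5.52 Mb, or 1.45 sites per Mb, against 1.39 per Mb for all protein-coding genes. The enzyme genes held 5 sites in 5.45 Mb, or 0.918 per Mb, and the 21 sulfotransferase genes had all of these within 0.856 Mb. The remaining 4.59 Mb of enzyme windows held none. Among genes with spans under 20 kb, 3 of 14 receptors and 2 of 79 enzymes carried a site, against 4.09% of all protein-coding genes of that length. At 20 to 60 kb these counts were 1 of 15 and 1 of 68 (all genes 6.41%), and at 60 kb or more 3 of 17 and 1 of 15 (all genes 13.6%). In each length class the enzyme share was below that of all genes. The receptor share was higher in the shortest class (21.4%), close to that of all genes at 20 to 60 kb (6.67%) and somewhat higher at 60 kb or more (17.6%). These shares rest on counts of 1 to 3 genes.

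The sequence at the gene starts differed between the classes. RefSeq promoter windows of 300 bases (250 before to 50 after a start, GRCm38.p6) were listed for 185 of the 226 genes. The median number of CpGs in the window was 16 for receptors, 2 for enzymes and 13 for all protein-coding genes. The tetranucleotide CCGG, the site of the enzyme usually used for this kind of library, occurred in the window of 83.3% of receptors, 28.8% of enzymes and 64.5% of all protein-coding genes. The enzyme used here is not named in the sources used here. Among all protein-coding genes, 8.01% of those with CCGG at a start carried a called site and 3.40% of those without it. Within the classes this order was not seen throughout. With CCGG at a start, 6 of 35 receptors (17.1%) and 0 of 38 enzymes carried a site, and without it 1 of 7 receptors (14.3%) and 3 of 94 enzymes (3.19%) did. The receptor share was thus the higher one in both strata, on few genes. Promoter content also differed between the enzyme families. Sulfotransferases had a median of 1 CpG, and CCGG in 2 of the 17 genes with a listed window, which leave out Sult4a1. Glutathione transferases had CCGG in 11 of 18 and carried no site, in only 0.368 Mb of merged windows. The part of CpG coverage by reads in the difference between classes was not tested.

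The windows of 5 genes are shown to make the range of CpG content visible, with each CpG in capitals. Ppara (chr15:85735526-85735825, plus strand) and Ppard (chr17:28232504-28232803, plus strand) are receptor genes with a called site further inside the gene, and both lie above the receptor median. Nr2f2 (chr7:70366697-70366996, minus strand) is the receptor gene with a called site and the fewest CpGs at its listed start, so a receptor window can be as poor in CpGs as those of enzymes. Sult2a4 (chr7:13989539-13989838, minus strand) is the enzyme gene whose called site lay nearest to a listed start. Cyp3a44 (chr5:145805825-145806124, minus strand) is the cytochrome P450 gene with the nearest called site. They hold 30, 27, 2, 1 and 2 CpGs, in the order given, and are printed 5′ to 3′ from RefSeq.
Ppara: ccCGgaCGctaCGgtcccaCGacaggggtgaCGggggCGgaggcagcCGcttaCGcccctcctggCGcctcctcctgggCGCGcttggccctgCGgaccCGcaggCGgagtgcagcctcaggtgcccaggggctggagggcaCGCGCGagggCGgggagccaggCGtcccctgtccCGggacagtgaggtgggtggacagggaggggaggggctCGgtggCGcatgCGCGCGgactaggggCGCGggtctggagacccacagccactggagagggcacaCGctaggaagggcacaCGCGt
Ppard: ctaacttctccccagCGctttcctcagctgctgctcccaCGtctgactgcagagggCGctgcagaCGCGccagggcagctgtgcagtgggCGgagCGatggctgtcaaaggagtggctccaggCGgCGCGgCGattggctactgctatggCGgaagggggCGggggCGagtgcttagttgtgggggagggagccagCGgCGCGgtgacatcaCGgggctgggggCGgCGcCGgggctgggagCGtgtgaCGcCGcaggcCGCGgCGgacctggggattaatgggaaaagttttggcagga
Nr2f2: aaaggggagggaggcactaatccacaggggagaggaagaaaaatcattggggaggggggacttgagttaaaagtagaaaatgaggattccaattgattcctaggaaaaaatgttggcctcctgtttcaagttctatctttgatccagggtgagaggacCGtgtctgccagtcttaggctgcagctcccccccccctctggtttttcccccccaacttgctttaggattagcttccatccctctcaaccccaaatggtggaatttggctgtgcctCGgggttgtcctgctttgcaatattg
Sult2a4: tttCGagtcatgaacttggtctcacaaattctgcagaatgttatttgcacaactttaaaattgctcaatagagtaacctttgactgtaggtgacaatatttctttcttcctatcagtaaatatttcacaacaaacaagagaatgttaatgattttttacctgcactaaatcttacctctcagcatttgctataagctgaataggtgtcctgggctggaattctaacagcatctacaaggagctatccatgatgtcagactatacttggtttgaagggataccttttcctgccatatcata
Cyp3a44: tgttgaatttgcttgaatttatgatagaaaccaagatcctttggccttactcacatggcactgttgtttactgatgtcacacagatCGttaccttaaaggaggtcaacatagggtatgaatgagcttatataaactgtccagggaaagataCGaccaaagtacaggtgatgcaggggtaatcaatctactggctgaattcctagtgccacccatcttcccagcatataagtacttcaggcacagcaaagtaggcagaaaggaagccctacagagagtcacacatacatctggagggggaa

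**Figure D2:**
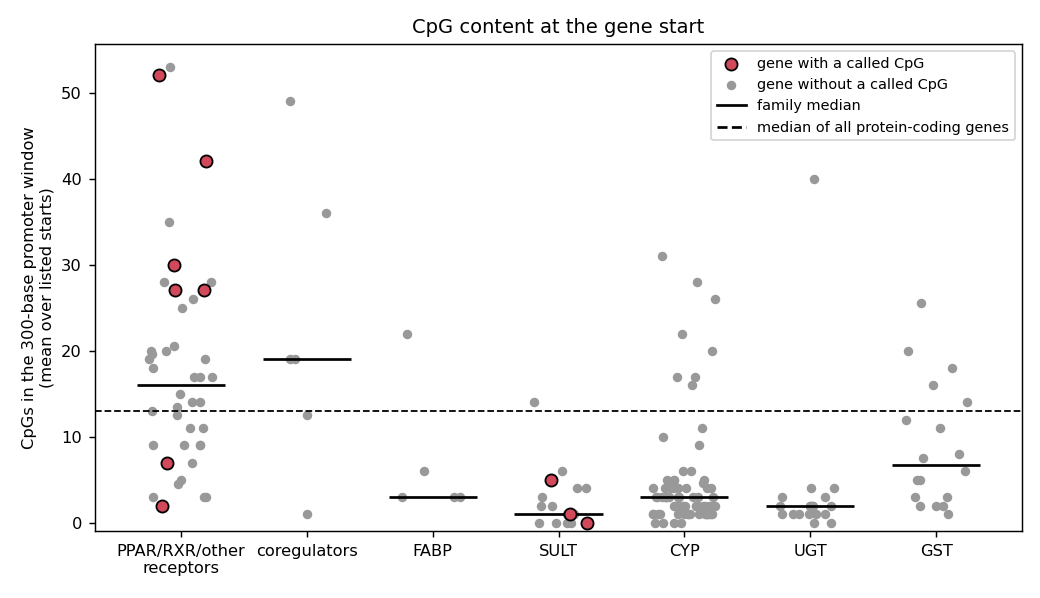
CpGs in the 300-base window at the gene start (mean over listed starts), 1 point per gene, with genes that carry a called CpG in red, the family median as a bar and the median of all protein-coding genes (13) dashed. Receptor genes with a called site range from 2 CpGs (Nr2f2) to 52 (Nr4a2), and the 3 sulfotransferases with one and a listed window have 5 or fewer; Sult4a1 has no listed window.

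No called site lay inside any promoter window of the 185 genes, against 0.234% of all protein-coding genes with a listed window (41 of 17492). At so low a background a count of 0 is near that of genes in general. The called sites that do fall in promoter windows of protein-coding genes, 58 in all, each sit on a C followed by G, so table and annotation use the same coordinates. Over the 10 genes with a listed start and a called site, the distance from site to nearest start ran from 424 bp to 80.2 kb, with a median of 9.33 kb. The median over all protein-coding genes was 10.0 kb. Of these 11 sites, 1 lay within 1 kb of a start, compared with 19.1% over all protein-coding genes.

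Both PPAR genes with a site had a single called CpG inside the gene, with a positive difference. Ppara, the receptor that drives fatty acid oxidation, spans 85734910 to 85806851 on chromosome 15. In the authors' deposited table its site at 85746929, 11.2 kb downstream of the listed start, differed by 29.6 percentage points (q = 1.32e-15). Ppard, a receptor active in fatty acid use in many tissues, spans 28232754 to 28301469 on chromosome 17. Its site at 28298325 in the authors' deposited table, 65.6 kb from the start and 95.4% of the way along the gene, differed by 30.3 points (q = 0). A further pair of sites lay upstream of Ppard, 6.85 and 6.86 kb outside the span and so beyond the window, and went the other way in the authors' deposited table (-26.5 and -30.9 points). Pparg, the adipocyte receptor, had no called site within 683 kb.

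Among the RXR genes, the shared partners of the PPARs, Rxrb had a negative difference. The site at 34039670 on chromosome 17 lay 1267 bp beyond the 3′ end of Rxrb (34031812 to 34038403), and the authors' deposited table gives -27.1 points (q = 0). That position is inside the span of Col11a2, a collagen gene, so it is counted for both genes. A second site, 14.3 kb outside Rxrb, differed by 33.4 points in the authors' deposited table. Rxra and Rxrg had no called site within 206 and 182 kb.

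The other receptors with sites were orphan receptors. Esrrb, an estrogen-related receptor that supports pluripotency in embryonic stem cells, spans 86361117 to 86521628 on chromosome 12. It had the largest difference of the receptor class, 36.9 points at 86501887 in the authors' deposited table (q = 0), and 10.4% of all called sites were at least as large. Nr4a2, an immediate-early receptor also needed for dopamine neurons, spans 57106830 to 57124003 on chromosome 2, and the authors' deposited table lists 28.5 points at 57114674 (q = 0). Nr2c1, an orphan receptor known as TR2, spans 94147542 to 94197216 on chromosome 10. Its site at 94190631, 25.4 points in the authors' deposited table (q = 3.59e-07), was close to the minimum for listing.

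Nr2f2, which encodes COUP-TFII, a regulator of venous identity, held sites of both directions. The gene spans 70351946 to 70366746 on chromosome 7, on the minus strand. For the site at 70358016, inside the span, the authors' deposited table gives -26.5 points (q = 0). The other, at 70351015 and 931 bp beyond the 3′ end, differed by 27.9 points there (q = 0 in the authors' deposited table), and the pair lay 7001 bp apart.

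Over the receptor class 6 sites were positive and 2 negative. A deposited q-value of 0 was given for 6 of the 8, and for 2073 of all 2798 called sites. The median size in the receptor class was 28.2 points, against 28.7 over all called sites. Carrying a positive site were 6 of 46 receptor genes (all protein-coding genes 3.48%), and a negative site 2 of 46 (all protein-coding genes 3.77%). These shares are not matched for span length, and per Mb the receptor class was near all protein-coding genes (1.45 and 1.39 sites of either sign). The retinoic acid receptors, ROR, thyroid hormone, estrogen and vitamin D receptor genes carried none. The glucocorticoid and mineralocorticoid receptor genes Nr3c1 and Nr3c2, the LXR genes Nr1h3 and Nr1h2 and the xenobiotic sensors Nr1i2 (PXR) and Nr1i3 (CAR) carried none either. Rara came closest, with a site 5.26 kb outside its span (25.5 points in the authors' deposited table), just beyond the 5 kb limit, and the site nearest to Nr1h2 lay 18.5 kb outside (26.8 points).

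**Figure D3:**
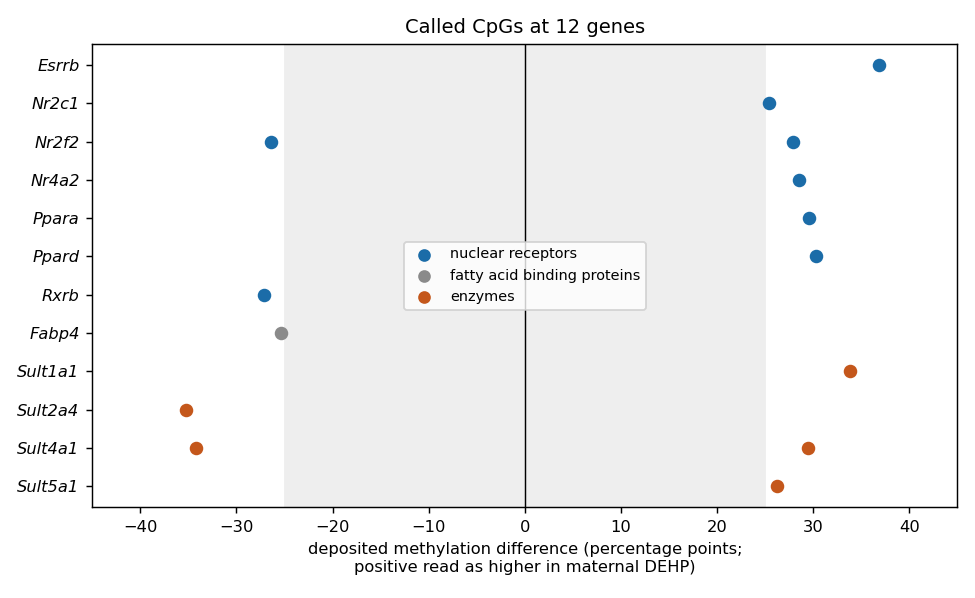
Deposited methylation difference in percentage points for 14 of the 18 called CpGs, at 12 of the 13 genes, with 1 row per gene and 1 point per site, coloured by class; the grey band marks differences below the minimum of the table. Nr2f2 and Sult4a1 have points on both sides of 0, and the Esrrb point, at 36.9, is the farthest from 0.

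Among the coactivator genes, which open chromatin for ligand-bound receptors, Ncoa2 and Ncoa3 had sites beyond the window, 12.3 and 12.2 kb outside their spans (31.6 and -25.7 points in the authors' deposited table).

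Fabp4 encodes the fatty acid carrier of adipocytes and macrophages and is a known PPAR target. Its span is short, from 10204342 to 10208616 on chromosome 3, and its site at 10206141 differed by -25.3 points (q = 0) in the authors' deposited table. Of all called sites, 93.9% were at least as large. The same site lay 8.86 kb outside the neighbouring Fabp9, and the other fatty acid binding protein genes had none within 20 kb.

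The 4 sulfotransferase genes with sites belong to different subfamilies and lie at 4 separate places in the genome. Sult1a1, the main phenol sulfotransferase, spans 126672865 to 126690443 on chromosome 7. Its site at 126668384 (33.8 points, q = 0 in the authors' deposited table) lay 4481 bp outside the span and inside Sgf29, a histone-reading subunit gene, near the limit of the window. Sult5a1, an enzyme of little-known substrate, spans 123142843 to 123158914 on chromosome 8, and in the authors' deposited table its site at 123149636 differed by 26.2 points (q = 0). These sites were 8.03 and 8.64 kb from the listed starts.

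Sult2a4 belongs to the hydroxysteroid sulfotransferases, which in the mouse form a cluster of related genes on chromosome 7. Of the 11 sites at genes with a listed start its site was the nearest to one, at 13990012 and 424 bp upstream of the start of the gene (13909677 to 13989591). The authors' deposited table gives -35.2 points there (q = 0), the largest difference of negative sign among the 18 sites. Its sign, like all others, depends on the direction of subtraction. The promoter windows of the 4 other Sult2a genes with a listed window were 53.5 to 65.6% identical to that of Sult2a4, printed above. Whether reads from related copies contribute to this value was not tested. The 7 other Sult2a genes carried no called site.

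Sult4a1, a sulfotransferase of the brain whose substrate is not established, spans 84076097 to 84105754 on chromosome 15. It held a site at 84104913 with 29.5 points and a site at 84105276 with -34.2 points, both with q = 0 in the authors' deposited table. They lay 363 bp apart, the second 478 bp inside the right-hand end of the span, and both are also in the span of the noncoding gene Gm46526. Nr2f2 likewise held both directions, as did 49.1% of all 330 protein-coding genes with at least 2 sites.

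**Figure D4:**
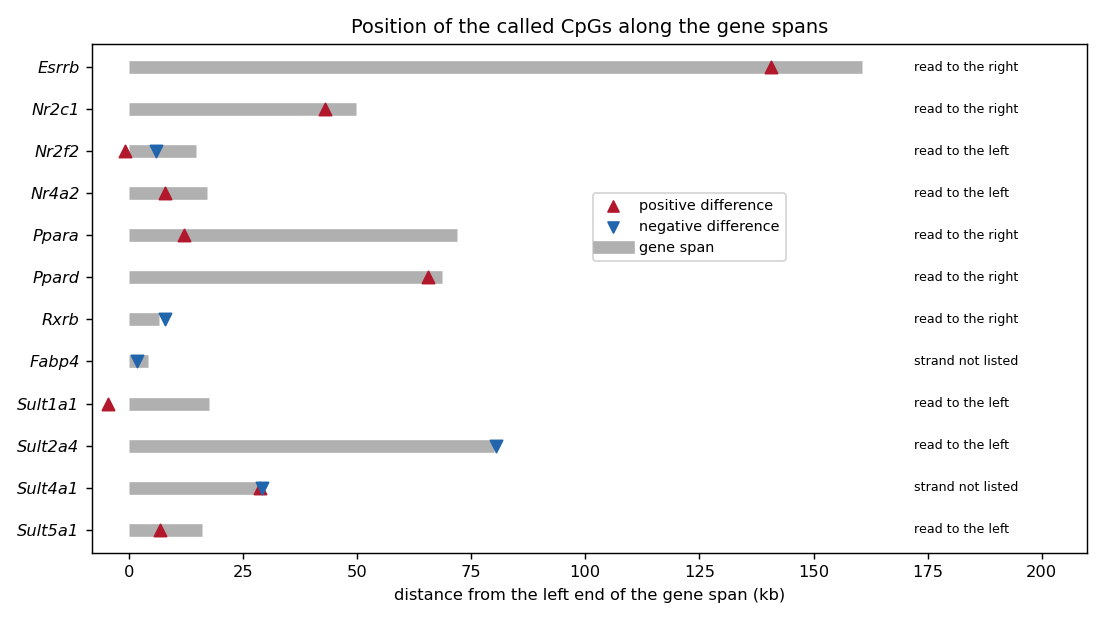
Called CpGs along 12 of the 13 gene spans (grey bars), with the distance in kb from the left end of the span on the x axis, triangles up for positive and down for negative differences; the text at the right gives the reading direction where RefSeq lists a start. Of the 14 sites drawn 10 lie inside a span and 4 outside, and the Sult4a1 sites, 363 bp apart, overlap at this scale.

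Cytochromes P450 include the oxidases of drugs, steroids, bile acids and fatty acids, among them the Cyp4a genes, known PPAR alpha targets in rodent liver, and Cyp1a1, the classical target of the aryl hydrocarbon receptor. All 99 genes were without a called site in their windows, while 6.51% of all protein-coding genes carried one. Some P450 genes are neighbours, and the windows of the 99 merge into 87 (3.63 Mb). The median distance from the P450 spans to the nearest called site was 313 kb. That median was 543 kb for Ugt, 270 kb for Gst, 167 kb for Sult, 247 kb for all receptor genes and 260 kb for all protein-coding genes. The nearest P450 was Cyp3a44, whose site lay 6.19 kb outside the span and differed by 31.7 points in the authors' deposited table. Among the glucuronosyltransferases the Ugt1a genes, which share their downstream exons, were nearest at 33.2 kb.

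Short sequences bound by nuclear receptors were searched on both strands of the promoter windows. The core element of the aryl hydrocarbon receptor, which is outside this set, was searched too. The half-site AGGTCA occurred at 26.2% of receptor genes, 24.2% of enzyme genes and 16.7% of all protein-coding genes. It was in the windows of 0 of the 10 genes with a listed start and a called site. The direct repeat DR1, a pair of half-sites with a spacer of 1 base to which PPAR and RXR bind together, was at 0 of 42 receptor and 0 of 132 enzyme genes with a window, and at 0.0572% of all genes. The core of the aryl hydrocarbon receptor element, GCGTG, occurred at 66.7% of receptor genes, 22.0% of enzyme genes and 41.4% of all genes, and at 5 of the 10 genes with a called site. Of these motifs, GCGTG alone contains a CpG. A match is not evidence of binding.

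Genes around the receptors and enzymes were examined as 6 lists of 141 genes, of which 12 carried a called site (8.51%, against 6.51% of all protein-coding genes). Of 14 genes of aryl hydrocarbon receptor and NRF2 sensing 3 carried a site and all were negative. In the authors' deposited table these were Keap1, the inhibitor of NRF2 (-36.8 points, 4.97 kb outside the span), Txnrd1, an NRF2 target (-35.0 points), and Hsp90ab1, a chaperone of the aryl hydrocarbon receptor (-28.7 points). Of 45 other xenobiotic-handling enzymes and transporters 3 carried a site, also negative. Among all protein-coding genes a negative site was at 3.77% (825 genes) and a positive one at 3.48% (763 genes), so either sign is common. The efflux pump gene Abcc4 had -37.2 points in the authors' deposited table. Papss1, which makes the sulfate donor used by sulfotransferases, had -31.0 points, and Por, the electron donor of microsomal P450s, had -28.9 points in the same authors' deposited table. These shares, 21.4% and 6.67%, rest on 3 genes each and are not matched for span length. All 6 lists were written with earlier results of these data known.

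Of 13 LXR target and sterol genes 4 carried sites (30.8%, against 6.51% of all protein-coding genes), a share that rests on 4 genes. The lists were written with earlier results of these data known, so this share is not independent of them. It is also not matched for span length. Fasn, the fatty acid synthase gene, had 27.2 points in the authors' deposited table. Apoe, a lipid carrier, held both directions (-31.7 and 27.9 points in the authors' deposited table), and Srebf2, the regulator of cholesterol synthesis, had -25.6 points. Of 34 PPAR target and fatty acid oxidation genes 1 carried a site (2.94%), the peroxisomal thiolase gene Acaa1b with 26.1 points (q = 1.50e-08) in the authors' deposited table. Of 18 retinoid genes 1 carried a site (5.56%). This was Rarres2, which encodes the chemoattractant chemerin, with -33.5 points in the authors' deposited table at 0.95 kb outside the span. Of the 17 other coregulator genes none carried a site.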

How the data were processed

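Reduced representation bisulfite sequencing libraries of 12 samples, 6 per maternal group, were compared by the authors. Per the submitters' processing notes, methylKit and the build GRCm38 (mm10) were used; for the aligner, coverage minimum and form of the test the sources used here give nothing. The deposited p-value and q-value columns and the methylation difference, a signed score in percentage points, were used as the authors deposited them. The tables of positive and negative sites add up to the whole table (2798 sites).

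Gene spans came from RefSeq GRCm38.p6 and promoter windows from the same build. Sites were assigned to spans extended by 5 kb, with Python 3.11.15, pandas 2.3.3 and numpy 2.4.6, and promoter windows were aligned with Biopython 1.88. The assignment was tested on simulated sites. The genes of the set with a called site are named, as are those of the lists around them, with the largest site, and genes whose nearest site lay between 5 and 20 kb. Some genes that this rule takes are not reported here. The genes and lists were chosen with earlier results of these data known. No test was run, because the table holds no value per library. The alternatives were other windows, larger minimum differences, a q-value of 0, merging within 1 kb, autosomes, single counting of shared sites and removal of opposite pairs.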

Additional observations from a re-analysis of the deposited data

How the results depend on the processing

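With a minimum difference of 30 percentage points, 6 genes carried a site (2 receptors and 3 enzymes), with 4 positive and 3 negative sites, and the receptor share exceeded the enzyme share by 2.5 points in place of 12.7. With 40 points the numbers of genes, receptors, enzymes, positive and negative sites and the difference in share were all 0 (0.425% of all protein-coding genes carried a site). Fewer sites enter at both settings. Within spans alone 2 enzyme genes carried a site, since those of Sult1a1 and Sult2a4 lie outside. Otherwise, over the 11 alternatives, 10 to 19 genes carried a site (4.95% of all protein-coding genes with spans alone and 10.7% with 20 kb), and the difference in share lay between 8.4 and 16.5 points. Merging within 1 kb, autosomes, single counting and removal of opposite pairs left 13 genes, 7 receptors and 4 enzymes with a site. These settings could not change the gene counts here, so they are no check of them. The settings without Nr2c2ap, and without sites inside another protein-coding gene, were chosen after seeing the data. No paired analysis was possible because the table holds no value per library; leaving out a library was not possible for the same reason, and depth is unknown.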
